A study of Mus musculus with 18 samples.

Results

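Embryoid bodies lacking Sam68 were compared with embryoid bodies lacking Quaking by ribosome profiling. The comparison used 6 of the 18 libraries of the series, chosen by their titles: 3 of Sam68 KO cells and 3 of Quaking KO cells, each after 10 days of embryoid body differentiation. Both knockout (KO) lines were made in E14, a mouse embryonic stem cell line, and all 6 libraries were sequenced in the same pool (MIX_3). The labels give no further allele and do not say how many clones a line stands for. The other 12 libraries are WT cells at day 10 (pool MIX_2) and all 3 lines as stem cells at day 0 (WT and Quaking KO in MIX_1, Sam68 KO in MIX_2). All cells were given 100 µg/mL cycloheximide for 15 minutes, which halts ribosomes on the mRNA, and fragments of 28 to 32 nt were taken for sequencing. The series describes the 3 libraries of a group as biological triplicates. The labels do not tie them to separate differentiations, so the p-values measure the spread between these libraries, which may be partly technical.

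Quaking and Sam68 belong to the STAR family, proteins that bind RNA through a KH domain and act on splicing, export, stability and translation of their target mRNAs. Quaking is known from the mouse for its part in blood vessel, yolk sac and muscle development and in myelination, and Sam68 for its part in alternative splicing in neurons and germ cells. Embryoid bodies are aggregates in which stem cells leave pluripotency and form derivatives of all germ layers, so a day 10 library is a mixture of cell types. In such a mixture fewer cells of a type and less RNA per cell cannot be told apart, and a footprint count joins mRNA amount with its rate of translation.

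The files name features by Ensembl ID only, and 0 of the 51826 IDs could be paired with a symbol through the reference table given. Lineages, cell type markers and the knocked-out genes themselves were therefore not examined, and the genotypes and the tissue rest on the labels. Groups of genes are described below by their behaviour in WT cells. At most 2 IDs are given for each direction.

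The 6 libraries held 988210 to 3281358 counts in Quaking KO and 2196924 to 7885195 in Sam68 KO. In Sam68 KO replicates 2 and 3 the 10 largest features took 60.2% and 64.4% of the counts, against 29.9% in replicate 1 and 24.6% to 30.0% in Quaking KO. The largest single feature was ENSMUSG00000058488.7 in 3 of the 6 libraries, ENSMUSG00000064339.1 in Quaking KO replicate 2 and Sam68 KO replicate 3, and ENSMUSG00000108010.1 in Sam68 KO replicate 2. ENSMUSG00000108010.1 took 20.96% of that library and 0.922% to 4.21% of the other 5. Scaling by trimmed means (TMM) gave Sam68 KO replicates 2 and 3 the factors 0.5305 and 0.493, against 1.01 to 1.19 in the other 4. Levels are in CPM, the count scaled by library size and TMM factor. As a floor, 3 counts stood for 0.377 CPM in the deepest of the 6 libraries and for 2.78 CPM in the shallowest.

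**Figure D1:**
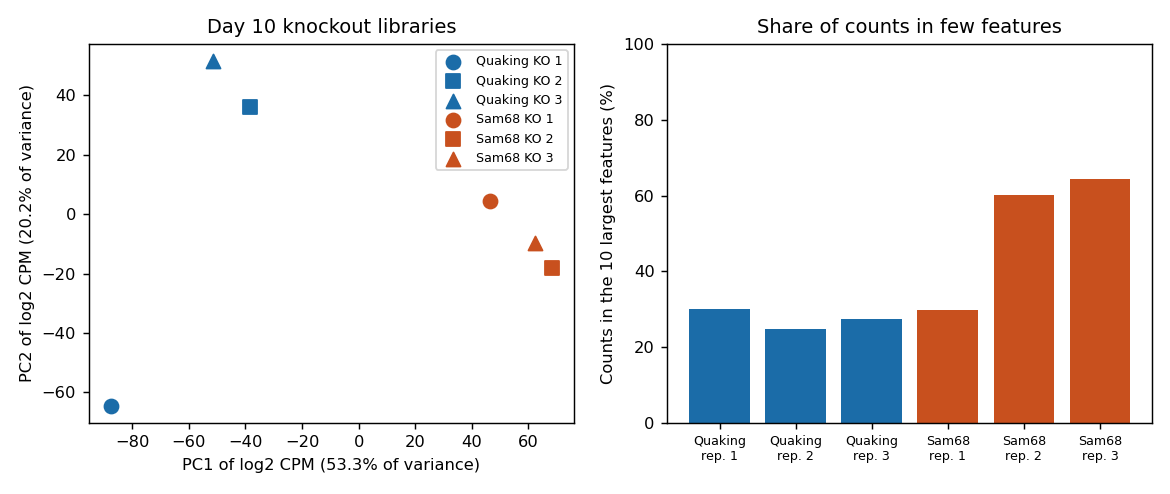
Left, the first 2 principal components of log2 CPM over the features tested in the 6 day 10 knockout libraries, coloured by line and marked by replicate number; right, the percentage of each library's counts in its 10 largest features. Lines separate along the first component (53.3% of the variance), Quaking KO replicate 1 lies apart on the second (20.2%), and Sam68 KO replicates 2 and 3 have the largest shares (60.2% and 64.4%).

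The lines separated in the main axis of variation. The first principal component held 53.3% of the variance over the 6 libraries and had all 3 Quaking KO libraries on one side and all 3 Sam68 KO libraries on the other. The second component, with 20.2%, set Quaking KO replicate 1, the shallowest library, apart from the other Quaking KO libraries. The typical difference between 2 libraries, as a scaled median absolute deviation of log2 CPM over features, was 0.469 to 0.709 within Quaking KO, 0.450 to 0.517 within Sam68 KO and 0.645 to 0.988 between the lines. The largest differences within Quaking KO, both with replicate 1, thus overlapped the smallest between the lines. The biological coefficient of variation was 0.283 in Quaking KO and 0.248 in Sam68 KO at day 10, and 0.145 and 0.197 in the same lines at day 0.

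Many features differed between the lines. Of 13701 features, 1787 (13.0%) were higher and 1455 (10.6%) lower in Sam68 KO than in Quaking KO, 23.7% of those tested together (edgeR's quasi-likelihood test over all 18 libraries, Benjamini-Hochberg adjusted p below 0.05). By at least 2-fold, 1135 were higher and 886 lower, and by at least 8-fold 145 were higher and 195 lower. The median absolute log2 fold change of the called features was 1.27. Of the called features 2971 (91.6%) had 3 libraries of one line all above the 3 of the other, as had 33.7% of all features tested. The direction of the majority depended on the scaling: 55.1% of calls were higher in Sam68 KO with TMM, 50.2% with upper quartile and 44.5% with RLE scaling, while the median log2 fold change of all features went from 0.03 to -0.06.

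Because the libraries varied more at day 10 than at day 0, the 6 libraries were also fitted alone. That fit called 1195 features higher (10.4%) and 1151 lower (9.99%) of 11527 tested (20.4%). In both fits 1146 features (8.36%) were higher and 1097 (8.01%) lower, and these 2243 (16.4%) are called in both fits below. They are 69.2% of the calls of the fit over 18 libraries, and no feature was called in opposite directions by the fits. Without Sam68 KO replicates 2 and 3 and WT day 10 replicate 3, the libraries with the largest shares in few features, 1356 features were higher and 1006 lower, and 2132 of the 3242 calls were kept in their direction. That setting leaves 1 Sam68 KO library at day 10, which is assumed to vary like the other groups.

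**Figure D2:**
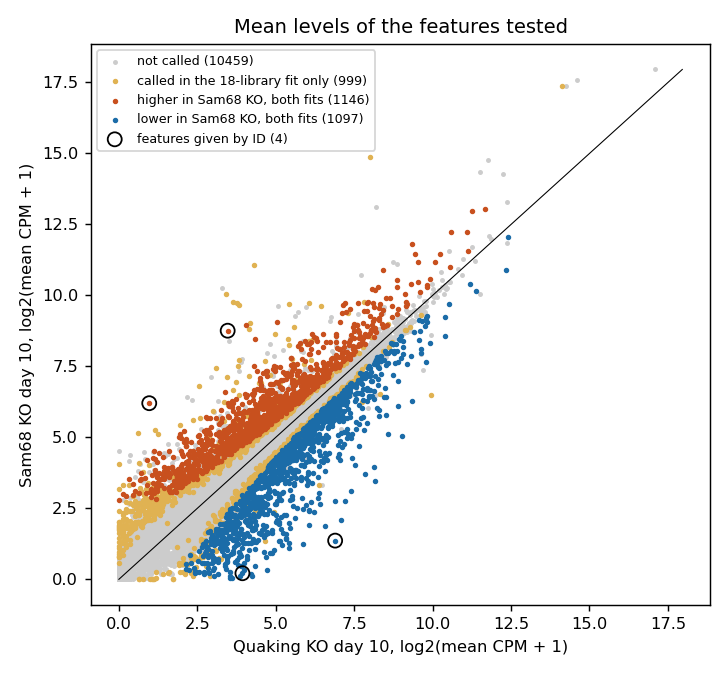
Mean level of each of the 13701 features tested in Quaking KO (x axis) and Sam68 KO (y axis) embryoid bodies, as log2(mean CPM + 1) over 3 libraries each; colours give the call and circles the 4 features given by ID. The features called in both fits (1146 higher, 1097 lower) lie on both sides of the line of equal level, over the whole range of levels.

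The 4 features with the largest differences, 2 in each direction, are given by ID and library. They were chosen among features called in both fits, with at least 10 CPM in the higher line and no overlap of libraries. Passing both fits and not overlapping are thus conditions of the choice and lend these 4 no further support. Of all features tested 33.7% did not overlap. The 2 that were lower in Sam68 KO had even values across the Quaking KO libraries. Feature ENSMUSG00000069516.8 measured 84.4, 147.9 and 121.4 CPM in Quaking KO replicates 1 to 3 and 0.503, 1.43 and 2.78 CPM in Sam68 KO replicates 1 to 3. Every Quaking KO library thus lay above every Sam68 KO library, and the Sam68 KO values rest on 4, 3 and 3 counts. It was lower in Sam68 KO by a log2 fold change of -6.92 (SE 0.54, edgeR adjusted p = 2.09e-06, and 2.97e-07 in the fit of 6 libraries). Without Sam68 KO replicate 1 it was -5.96, and without Sam68 KO replicates 2 and 3 and WT replicate 3 it was -7.82. This feature had no count in any of the 9 day 0 libraries. In WT embryoid bodies it measured 9.15, 5.32 and 0 CPM, between the knockouts in replicates 1 and 2. WT replicate 3 had no count, where the floor was 7.05 CPM.

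Feature ENSMUSG00000026177.11 behaved likewise at a lower level. It measured 14.8, 15.0 and 13.2 CPM in Quaking KO, from 121 counts, and had 1 count in Sam68 KO, in replicate 2. As the choice required, the groups did not overlap. The ratio of Quaking KO to Sam68 KO was 158 with a 95% counting interval of 27.8 to 6291 (edgeR adjusted p = 1.03e-05, and 1.71e-05 in the fit of 6 libraries). WT at day 10 measured 1.80, 2.44 and 0 CPM, and no group exceeded 0.806 CPM on average at day 0. Its size is poorly fixed: its fitted log2 fold change was -6.88, -5.42 without Sam68 KO replicate 1 and -4.34 on thinning all libraries to the smallest total, and -5.39 with limma's voom. Without Sam68 KO replicate 2 no count is left in that line and the fitted fold has no meaning as a size. The calls of both features held under every setting tried, as listed in the closing section.

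The 2 that were higher in Sam68 KO varied widely within that line. Feature ENSMUSG00000058446.14 measured 102.9, 388.9 and 802.8 CPM in Sam68 KO replicates 1 to 3, and 10.2, 8.78 and 11.2 CPM in Quaking KO. The groups did not overlap, as the choice required. Sam68 KO spanned the widest range of the 3 day 10 groups in CPM, while on a log scale WT did. The log2 fold change was 5.40 with an SE of 1.23 (edgeR adjusted p = 0.00669 over 18 libraries and 0.0298 over 6). The raw counts of the 3 Sam68 KO libraries were 818, 814 and 867, so their spread in CPM followed the scaled library size, which was smallest in replicates 2 and 3. WT at day 10 showed a like pattern, with 14.2, 27.9 and 319.5 CPM, the highest in replicate 3, where the 10 largest features took 70.4% of the counts. Without Sam68 KO replicates 2 and 3 and WT replicate 3 the log2 fold change fell to 3.37 and still passed (edgeR adjusted p = 0.00928), and without Sam68 KO replicate 3 alone it was 4.60 (0.0192). It passed neither in the fit of the 9 day 10 libraries (edgeR adjusted p = 0.0637) nor with a replicate block in the fit of 6 (0.0723).

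Feature ENSMUSG00000025318.13 had the largest positive difference. It measured 27.2, 76.9 and 113.9 CPM in Sam68 KO and 0.928, 0.258 and 1.68 CPM in Quaking KO, where it rests on 8 counts and no library reached the Sam68 KO values. The log2 fold change was 6.15 with an SE of 1.89 (edgeR adjusted p = 0.0331 over 18 libraries and 0.00856 over 6). The lines already stood apart as stem cells: at day 0 it measured 12.1, 62.8 and 245.2 CPM in Sam68 KO and 1.49, 1.15 and 2.5 CPM in Quaking KO (edgeR adjusted p = 0.0788). The day 0 libraries did not overlap, but the difference there did not pass the test, and WT day 0 libraries ranged from 1.24 to 23.3 CPM. At day 10 WT measured 29.4, 19.5 and 164.5 CPM, a range that held all 3 Sam68 KO values and none of the Quaking KO values. This call was lost without Quaking KO replicate 1, 2 or 3 (edgeR adjusted p = 0.0683, 0.113 and 0.0948), without Sam68 KO replicate 2 or 3 (0.0732 and 0.0717) and without all 3 libraries dominated by few features (0.220). The log2 fold change was 5.48 without Quaking KO replicate 2, 7.29 without Quaking KO replicate 3 and 4.83 without those 3 libraries.

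**Figure D3:**
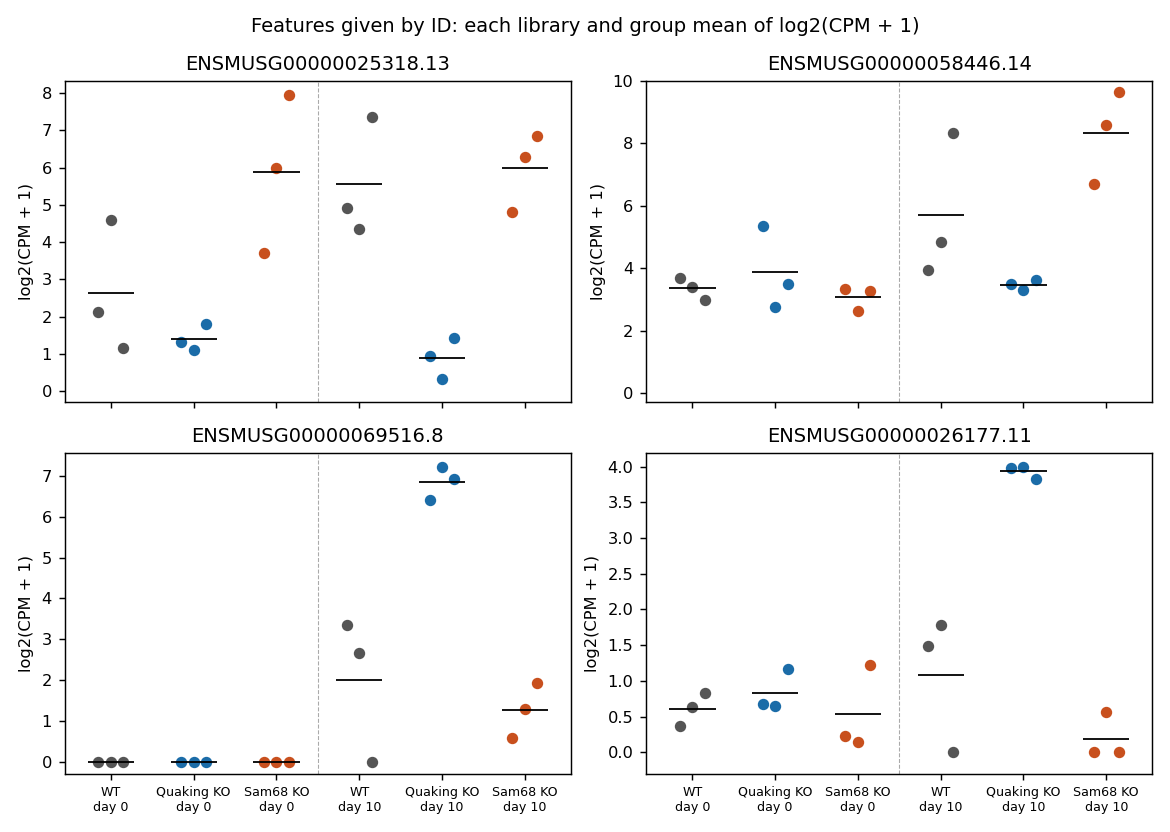
Level of the 4 features given by ID in each of the 18 libraries, as log2(CPM + 1), by line and day; bars are means of 3 libraries and the dashed line separates day 0 from day 10. The 2 upper features are high in Sam68 KO at day 10 with a wide spread, and the 2 lower ones are high in the 3 Quaking KO libraries at day 10 and near 0 in Sam68 KO.

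Features nearly absent from one line are sets chosen by the values compared and are described without a test. They were chosen much as the 4 features above and lend their contrast in evenness no separate support. There were 12 features with at most 3 counts over the Sam68 KO libraries and a mean of at least 10 CPM in Quaking KO. Their Quaking KO means ran from 10.5 to 19.4 CPM, with a median of 13.0, and their SD was 21.5% of the mean in the median case. In WT embryoid bodies they measured 0.424 to 2.70 CPM on average and in the 3 stem cell groups at most 1.28 CPM. Of the 12, 11 rose at least 2-fold in WT between the days, as did 3743 of the 13701 features tested. All 12 were called in both fits, as were 16.4% of all features tested, but the choice by few counts nearly fixed this. In the reverse direction 5 features had at most 3 counts in Quaking KO and at least 10 CPM in Sam68 KO. Their means were 10.6 to 22.2 CPM, with a median SD of 113% of the mean. Only 1 of these 5 was called in both fits, so the uneven set consists mostly of features without a supported difference. Sam68 KO replicates 2 and 3 had TMM factors of 0.5305 and 0.493, and how far this scaling shaped the spread of the 5 was not tested.

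Of the features that rose when WT cells differentiated, 39.5% differed between the knockouts. Features were grouped by the change from day 0 to day 10 in WT cells, whose libraries are not among the 6 compared. A choice by WT level can still favour Sam68 KO in direction, as set out below for features silent in WT stem cells. Of the 3743 features that rose at least 2-fold in WT (edgeR, adjusted p below 0.05; over all features 34.9% rose and 30.1% fell by any amount, 65.0% together), 861 were higher and 619 lower in Sam68 KO than in Quaking KO. The share called over all features tested was 23.7%, and the rising group had a median log2 fold change of 0.14 beside 0.03. Of these calls 680 and 576 were made in both fits. Of the 2699 that fell at least 2-fold in WT, 205 were higher and 268 lower (17.5% called, median -0.05), with 67 and 142 in both fits. Of the 7259 in neither group, 721 were higher and 568 lower (17.8%).

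The features that rose most in WT were split between the lines. Of the 1392 that rose at least 8-fold, 344 were higher in Sam68 KO and 368 higher in Quaking KO, 51.1% in all, and 292 and 354 of these calls were made in both fits. The median absolute log2 fold change over this group was 1.32, beside 0.446 over all features, yet they centred near 0 (median 0.03, quartiles -1.21 and 1.42). The typical level of the group was also alike: the median over its features was 13.0, 13.9 and 13.9 CPM in Quaking KO replicates 1 to 3, 11.5, 13.9 and 13.9 in Sam68 KO and 11.4, 12.4 and 14.1 in WT at day 10. The lines thus overlapped in the middle of the group while single members lay far apart in both directions. Of the 2351 features that rose between 2-fold and 8-fold, 517 were higher in Sam68 KO and 251 lower (median log2 fold change 0.16), so the higher calls predominated here. They did so also under RLE scaling and in the fit of 6 libraries, as given in the closing section, with the same list of features. The list was chosen by WT levels, and against WT 24 features were called in Sam68 KO and 3279 in Quaking KO. Such a choice can favour Sam68 KO, and these settings do not address that.

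The share of counts in this group varied between libraries, although its median level was alike, as given above. Features that rose at least 8-fold took 14.0%, 31.6% and 15.1% of the counts in Quaking KO replicates 1 to 3 and 20.0%, 45.4% and 58.9% in Sam68 KO, where replicates 2 and 3 are those dominated by few features. Single features varied too: ENSMUSG00000064339.1 took 0.412%, 8.02% and 0.394% of Quaking KO replicates 1 to 3 and 1.31%, 7.835% and 20.9% of Sam68 KO. Without those libraries and WT day 10 replicate 3, 289 features of the group were higher and 300 lower. With the groups formed again without WT day 10 replicate 3, 326 were higher and 359 lower of 1265.

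Of the 452 that fell at least 8-fold in WT, Sam68 KO was the higher line for 22 and the lower for 44 (14.6% called), with 4 and 21 in both fits. Their median level at day 10 was 0 to 0.775 CPM in Quaking KO and 0.629 to 0.956 CPM in Sam68 KO, so the depth limits what can be called: in the higher line the middle feature of this class had 1.10 CPM, against 23.5 CPM in the class that rose at least 32-fold.

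**Figure D4:**
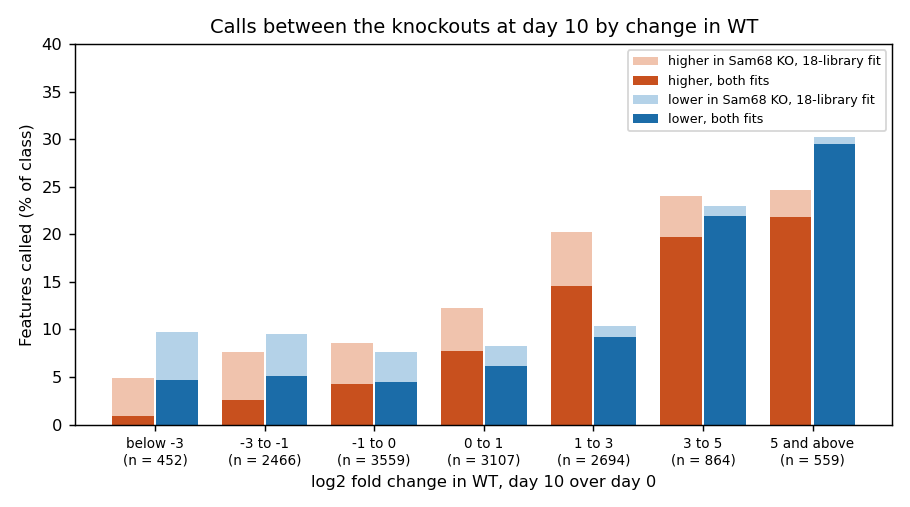
Percentage of features called higher (orange) or lower (blue) in Sam68 KO than in Quaking KO at day 10, in classes of the log2 fold change of WT cells from day 0 to day 10; pale bars give the fit of 18 libraries and dark bars the calls made in both fits. Both directions grow with the rise in WT, to 24.7% higher and 30.2% lower in the class of 5 and above.

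Of 27 features silent in WT stem cells and present in WT embryoid bodies, more were called higher than lower in Sam68 KO. There were 27 features without a count in the 3 WT day 0 libraries and with a mean of at least 10 CPM in WT at day 10, and all 27 passed the filter on low counts. Of these, 15 were higher in Sam68 KO than in Quaking KO, 4 were lower and 8 were not called (edgeR, adjusted p below 0.05), where the shares over all features were 13.0% and 10.6%. All 19 called features had lines that did not overlap, as had 91.6% of all called features and 33.7% of all features tested. Of the calls, 14 of the higher and all 4 of the lower were made in both fits. The log2 fold changes ran from -4.84 to 3.35 with a median of 1.21. The choice asked for at least 10 CPM in WT, so features high in Quaking KO and low in WT could not enter. ENSMUSG00000069516.8, at 117.9 CPM in Quaking KO, was left out by its mean of 4.82 CPM in WT. Against WT, 24 features were called in Sam68 KO and 3279 in Quaking KO, so a choice by WT level favours Sam68 KO. The lean describes these 27 and does not measure how many genes each line switched on.

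The values by library, under the same choice, show the same lean. The median over the 27 features was 8.35, 15.8 and 12.1 CPM in Quaking KO replicates 1 to 3 and 22.8, 18.2 and 17.6 CPM in Sam68 KO. Each Sam68 KO library was above each Quaking KO library, and WT at day 10, with 21.0, 22.4 and 18.8 CPM, lay within the range of Sam68 KO. All 27 were detected in each Sam68 KO library, and 25, 27 and 26 in Quaking KO. Over the settings tried, 12 to 16 of the 27 were higher and 3 to 5 lower. The 5 features that did the reverse in WT, from at least 10 CPM at day 0 to no count at day 10, had 0 calls in either direction between the knockouts at day 10, where each Quaking KO library summed to at most 2.78 CPM over the 5 and each Sam68 KO library to at most 1.85.

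**Figure D5:**
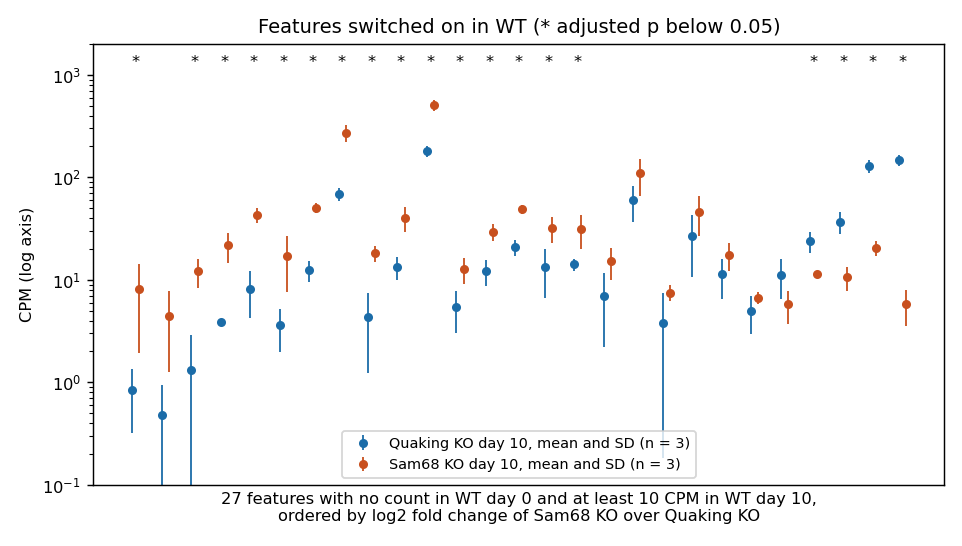
Mean and SD over 3 libraries, on a log axis of CPM, of the 27 features with no count in WT stem cells and at least 10 CPM in WT embryoid bodies, in Quaking KO (blue) and Sam68 KO (orange) at day 10, ordered by log2 fold change, Sam68 KO minus Quaking KO; stars mark edgeR adjusted p below 0.05, and bars that reach below the axis run to its lower edge. The 15 called higher features are on the left, with 1 uncalled among them, and the 4 called lower ones on the right.

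Among the most abundant features more were called higher than lower in Sam68 KO. Classes of abundance use the same levels as the comparison and are a description. Where the higher line had at least 1000 CPM, 28 of 77 features were higher in Sam68 KO, 7 were lower and 42 were not called, where over all features 13.0% were higher and 10.6% lower. Of these calls, 24 and 7 were made in both fits, and the median log2 fold change of the 77 was 0.54. Between 100 and 1000 CPM 372 of 1617 were higher and 294 lower, and between 10 and 100 CPM 1097 of 7965 and 960. Between 1 and 10 CPM 13.1% were called, beside 41.2% between 100 and 1000 CPM. The same 77 features gave 24 higher and 9 lower under RLE scaling. Without the 3 libraries dominated by few features their median log2 fold change was 0.33. Since the 77 were chosen by the levels compared, these settings lend the lean no separate support. Between 100 and 1000 CPM RLE scaling turned the lean (310 higher, 384 lower). The 3 dominant features named above are among the most abundant. Of them ENSMUSG00000108010.1 was called, at 41710, 396200 and 69610 CPM in Sam68 KO and 19950, 7814 and 26070 CPM in Quaking KO. The groups did not overlap and the log2 fold change was 3.24 with an SE of 0.83 (edgeR adjusted p = 0.0127), but the call was not made in the fit of 6 libraries (edgeR adjusted p = 0.159).

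Cell cycle markers were called at shares near that of all features. The markers were genes that mark only 1 phase among the mouse marker pairs distributed with scran, the one set of lists that names genes by Ensembl ID. Of 11 markers of G1, the phase before DNA synthesis, 1 was higher in Sam68 KO and 1 lower. Of 35 markers of S, the phase of DNA synthesis, 2 were higher and 3 lower, and of 29 markers of G2 and mitosis 3 were higher and 3 lower. Called in all were 18.2% of the G1, 14.3% of the S and 20.7% of the G2 and mitosis markers, beside 23.7% over all features; in lists this small nothing is read from the difference. The summed level of the G2 and mitosis markers was 1985 to 2095 CPM over the Quaking KO libraries and 1977 to 2024 CPM over those of Sam68 KO, ranges that overlapped. The S markers summed to 1302 to 1347 CPM in Quaking KO and 1553 to 1653 CPM in Sam68 KO, which did not overlap. Their median level overlapped, at 22.3, 24.0 and 24.1 CPM in Quaking KO replicates 1 to 3 and 21.1, 19.6 and 23.15 CPM in Sam68 KO. The S sums therefore do not show a shift of that list as a whole. For the G1 markers the reverse held. Their median levels did not overlap, at 66.8, 79.5 and 67.3 CPM in Quaking KO and 89.8, 96.5 and 106.5 CPM in Sam68 KO. Their sums did, at 980.4 to 1038 CPM in Quaking KO and 980.9 to 1103 CPM in Sam68 KO.

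As stem cells, 454 features separated the lines. At day 0, 349 features (2.55%) were higher in Sam68 KO than in Quaking KO and 105 (0.766%) lower, 3.31% of those tested (edgeR, adjusted p below 0.05), where the lines lie in different pools and pool and line cannot be told apart. The day 0 and day 10 comparisons share no library. Of the calls 146 were made at both days in the same direction, 4.50% of the day 10 calls and 32.2% of the day 0 calls, and 68 in opposite directions (2.10% and 15.0%). Of the 146, Sam68 KO was the higher line for 130 and the lower for 16. A test of the change itself, the difference between the lines at day 10 minus that at day 0, called 1551 features (11.3%), 637 of them (4.65%) with a positive and 914 (6.67%) with a negative value. Thinned to the smallest total, it called 711. For ENSMUSG00000026177.11 this value was -6.19 (SE 1.42, edgeR adjusted p = 0.00515) and for ENSMUSG00000058446.14 it was 6.79 (SE 1.67, adjusted p = 0.0207). For ENSMUSG00000025318.13 it was 0.28 (SE 3.12, adjusted p = 0.986). ENSMUSG00000069516.8 had no count in any day 0 library, so its value (-6.92, SE 22158) could not be estimated and this test cannot judge it.

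Set beside WT embryoid bodies, each line gave a different number of calls. Quaking KO had 1523 features (11.1%) higher and 1756 (12.8%) lower than WT at day 10 (23.9% of those tested), and Sam68 KO had 10 (0.0730%) higher and 14 (0.102%) lower (0.175%; edgeR, adjusted p below 0.05). The median absolute log2 fold change over all features was 0.443 for Quaking KO and 0.209 for Sam68 KO. Both comparisons use the same 3 WT libraries, from another pool, so pool and line cannot be told apart in either. WT at day 10 also varied most, with a biological coefficient of variation of 0.358, beside 0.283 in Quaking KO and 0.248 in Sam68 KO. In WT replicate 3 the 10 largest features took 70.4% of the counts. Calls against WT without that library are not given, so the small number in Sam68 KO does not show likeness to WT. Of the 4 features given by ID, the 2 that were high in Quaking KO differed from WT in that line, with log2 fold changes of 4.13 for ENSMUSG00000069516.8 (edgeR adjusted p = 1.71e-05) and 2.88 for ENSMUSG00000026177.11 (0.00192). In Sam68 KO they measured -2.79 and -4.00 against WT and did not pass (edgeR adjusted p = 0.194 and 0.271). The 2 that were high in Sam68 KO passed against WT in neither line: ENSMUSG00000058446.14 had log2 fold changes of -3.15 in Quaking KO (adjusted p = 0.0935) and 2.25 in Sam68 KO (0.770), and ENSMUSG00000025318.13 of -5.73 (0.0541) and 0.42 (1).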

How the data were processed

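The deposited files held raw counts, whole numbers for 51826 versioned Ensembl IDs, with 1 file a library. The tools named in the submitters' processing notes are STAR 2.5.3a, Bowtie2 and bcl2fastq 2.17.1.14, and the builds GRCm38 and mm10. Which program counted, on which annotation and with or without strand, is not stated in the sources used here, so overlapping, antisense and near-identical genes are uncertain. The reference table held no Ensembl ID, so the lists by symbol, the check of the knocked-out genes, the limit to protein-coding genes and the printing of sequences could not be run.

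Counts were fitted with edgeR 4.0.16 (R 4.3.3; TMM, default filter by group, robust quasi-likelihood, 1 mean per group over 18 libraries); 13701 of 33167 features with any count were tested, holding at least 99.4% of each library's counts. Benjamini-Hochberg adjusted p below 0.05, two-sided, was called. Errors are SD over 3 libraries or the fit's SE. Features given by ID had to pass in both fits, reach 10 CPM in the higher line and not overlap, and were ranked by log2 fold change. Counting intervals (95%, exact binomial) and floors of 3 counts cover counting error only, since reads are not independent molecules. No replicates were alike within counting error (lowest chi-square over degrees of freedom 11.3). Groups formed from the WT course, abundance or few counts and the marker lists of scran 1.30.0 were added after the files were seen. The comparison, members and lists were chosen with earlier results of these data known. Alternatives included DESeq2 1.42.0 and limma 3.58.1. The test was tried on simulated counts.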

Additional observations from a re-analysis of the deposited data

Results flagged for a closer look

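The difference between the knockout lines was not the same at day 10 and at day 0 for 1551 features (edgeR's quasi-likelihood test of the difference itself, adjusted p below 0.05), 11.3% of those tested, and for 711 with all libraries thinned to the smallest total. At day 0 the lines lie in different pools and at day 10 in the same pool, so pool and day cannot be told apart in this test. Among the features given by ID it was passed by ENSMUSG00000058446.14, with a difference of log2 fold changes of 6.79, and by ENSMUSG00000026177.11, with -6.19. It cannot judge ENSMUSG00000069516.8, which had no count in any day 0 library. Samples far from the rest of their group were not sought, since groups of 3 are too small.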

How the results depend on the processing

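The number of features called between the knockouts at day 10 changed with the libraries fitted and their depth. Against 1787 higher and 1455 lower, the fit of the 9 day 10 libraries called 1165 higher, thinning to 988210 counts per library 1018 higher, and a replicate block in the fit of 6 libraries 1028 higher and 934 lower. The replicate block in the fit of 18 libraries called 1732 and 1383. Same-numbered libraries of the lines did not deviate together (r = -0.0669, -0.114 and -0.0683), so the numbers were not taken as pairs. RLE scaling called 1505 higher and 1875 lower, DESeq2 1496 and 1782, voom with sample weights 1491 and 1303, and no filter on low counts 1389 and 1446. Leaving out in turn each of the 6 libraries, or WT day 10 replicate 3, gave 1291 to 2054 higher and 1098 to 1653 lower. The change of the difference between the days gave 711 features on thinning, against 1551, and 1147 to 1615 without each of the 6 libraries in turn. No feature called with all libraries was called in the opposite direction under any of these settings. The 2 features given as lower in Sam68 KO passed under all of them, and ENSMUSG00000025318.13 did not with voom (adjusted p = 0.313) or with no filter (edgeR adjusted p = 0.0686). Of features that rose 2-fold to 8-fold in WT, RLE scaling gave 446 higher and 312 lower and the fit of 6 libraries 407 and 235. The protein-coding and symbol-list alternatives were not run. Depth limits features near the floor of 2.78 CPM in the shallowest library.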
